A study of Solanum tuberosum with 6 samples.

Results

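The miR166 family of potato leaves is described here through its mature sequences in small RNA libraries of cv. Shepody. The members are the rows of the deposited miRNA table whose name is a species prefix followed by miR166, of any length variant and of both hairpin arms, and 14 of the 910 rows met this rule. Of the 14, 5 carry a potato (stu), 6 a tomato (sly) and 3 a tobacco (nta) name, which marks the known miRNA a read was matched to and not the plant it came from. The prefix is followed by the known name and by the change at each end, so that L+2R-2 means 2 bases more at the left (5′) end and 2 fewer at the right (3′) end. Another 8 rows written MIR166, which lie elsewhere on the known precursors, were not taken as members. The 3 control libraries (C1, C3 and C5) came from plants sprayed with distilled water and the 3 KPhi libraries (T2, T4 and T6) from plants sprayed with a 1% (v/v) potassium phosphite solution of a commercial product at 5 mL per plant. All plants were sprayed 21 days after emergence in a greenhouse, and leaves were harvested 72 h later, at an age of 24 days after emergence. The samples are whole leaf tissue of 1 cultivar at 1 time, and the methods call the libraries of a condition biological replicates.

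miR166 is one of the most conserved plant miRNA families. Its hairpins are cut by a Dicer-like enzyme into a duplex of a 5′ arm and a 3′ arm strand, and the 3′ arm strand, loaded mainly into ARGONAUTE1, guides the cleavage of mRNAs of class III homeodomain-leucine zipper (HD-ZIP III) transcription factors. In Arabidopsis these factors, among them PHABULOSA, PHAVOLUTA and REVOLUTA, specify the upper side of the leaf, the shoot meristem and the vascular tissue, and miR166 limits them to their domain. RefSeq lists 4 potato genes, MIR166A to MIR166D, in the SolTub_3.0 assembly. Positions are not given, because the assembly behind the deposited table is not named in the sources used here.

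The 3′ arm sequences that carried nearly all reads differ in only a few letters, so they are shown first, with the seed (bases 2 to 8 from the 5′ end) in capitals and in the DNA letters of the deposited table.
stu-miR166a-3p: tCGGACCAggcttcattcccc
stu-miR166b: tCGGACCAggcttcattcctc
sly-miR166a_R+1: tCGGACCAggcttcattcccca
sly-miR166c-3p_R+1: tCGGACCAggcttcattcctct
sly-miR166a_L+2R-2: tCTCGGACcaggcttcattcc
sly-miR166a_L+1R-2: cTCGGACCaggcttcattcc
stu-miR166a-3p and stu-miR166b differ at 1 base, C20T counted from the 5′ end, and each R+1 form is one of them with 1 more base at the 3′ end. sly-miR166a_L+2R-2 starts 2 bases earlier and stops before base 20 of the others, so the letter that separates stu-miR166a-3p from stu-miR166b is missing from it and it cannot be assigned to either. A stretch of 19 bases is common to these 6 sequences and, over the whole table, was found in 8 members and in 0 other rows. The seed CGGACCA was shared by 7 members with 63.4% of the family's reads, while the seed CTCGGAC belonged to sly-miR166a_L+2R-2 alone, with 36.4%.

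The 5′ arm was represented by 4 members, of which these 2 had enough reads to be tested and 1 more is shown for its sequence.
stu-miR166a-5p: gGAATGTTgtctggctcgagg
sly-miR166c-5p_1ss11CT: gGGATGTTgtttggctcgaca
stu-miR166d-5p: aGAATGTCgtctggttcgaga
sly-miR166c-5p_1ss11CT differs from stu-miR166a-5p at 4 bases (A3G, C11T, G20C and G21A), so the 2 tested 5′ arm members have different seeds. Folded with RNAduplex, stu-miR166a-5p and stu-miR166a-3p formed 16 base pairs with 2 unpaired bases at each 3′ end, the overhang that Dicer-like cleavage leaves, at a predicted energy of -24.0 kcal/mol. With sly-miR166a_L+2R-2, the same 5′ arm strand formed 17 pairs, and the 3′ arm strand then had 0 unpaired bases at its 3′ end and 1 at its 5′ end. sly-miR166c-5p_1ss11CT formed 16 pairs with 2-base overhangs with stu-miR166b and with stu-miR166a-3p alike, at -21.1 and -20.7 kcal/mol. These are predictions from the letters and do not tell which hairpin a read came from.

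The sites below are among those that the study predicted for the R+1 forms. They lie in mRNAs annotated as HD-ZIP III proteins, as BZIP domain class transcription factor or only as DNA binding protein. They are printed 5′ to 3′ in RNA letters, with capitals at the bases that face stu-miR166a-3p without a Watson-Crick pair. The first base lies beyond the last base of stu-miR166a-3p.
REV HD-ZipIII and class III HD-Zip protein 8: cCUggGaugaagccugguccgG
PHAVOLUTA-like HD-ZIPIII protein: aUUggGaugaagccugguccgG
Transcripts annotated only as DNA binding protein: cCUggaaugaagccugguccgG
The REV site was also listed for transcripts annotated as BZIP domain class transcription factor. Against this site, stu-miR166a-3p formed 17 Watson-Crick pairs of 21. It had G:U wobbles at its bases 1 and 17 and mismatches at bases 20 and 21. stu-miR166b gave the same numbers, since its base 20 is mismatched as well. The 19 bases of sly-miR166a_L+2R-2 that face this site formed 17 Watson-Crick pairs and 2 wobbles with 0 mismatches, while its first 2 bases lie past the printed site. sly-miR166c-3p_R+1 gained 1 pair at its last base on the PHAVOLUTA-like site, with 18 Watson-Crick pairs of 22, whereas sly-miR166a_R+1 had 17.

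miR166 reads made up 9.41% (C1), 8.22% (C3) and 7.44% (C5) of the mappable reads under control and 3.37% (T2), 2.20% (T4) and 7.61% (T6) under KPhi. T2 and T4 lay below every control library, and T6 lay within the control range. The difference of -3.96 percentage points had p = 0.2 in an exact two-sided permutation test, which with 3 libraries against 3 gives no p below 0.1. It was -2.86 without T4 and -5.57 without T6. The other miRNAs of the table ranged from 1.64% to 1.86% of the mappable reads in control and from 1.19% to 1.75% in KPhi libraries, so the family took 81.4% to 83.5% of the table in control and 74.0%, 60.0% and 81.3% in T2, T4 and T6. In whole leaves, fewer cells that make miR166 and less miR166 per cell cannot be told apart. Mappable reads numbered 4133739 to 8025802 per library. T4 had the fewest reads in the miRNA table, 160923 against 365864 to 612266 in the other libraries, and 38.0% of its adapter reads were longer than 32 nt against 3.20% to 14.7% elsewhere. The part of this in the low share of miR166 in T4 was not tested.

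The levels of single members below are table reads scaled to CPM and normalized by TMM (normalized CPM). TMM scales libraries so that the bulk of the sequences is level. The TMM factor was 1.85 in T4 and from 0.746 (C3) to 0.947 (C1) in the other libraries. Normalized CPM is thus lowered in T4 and raised in the others, most in C3, against CPM by the table total. The log2 fold changes (KPhi over control) and p-values come from edgeR's quasi-likelihood test over the 165 sequences that reached 10 reads in 3 or more libraries, with Benjamini-Hochberg adjustment over all of them. 8 members were tested, 6 of the 3′ arm and 2 of the 5′ arm.

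**Figure D1:**
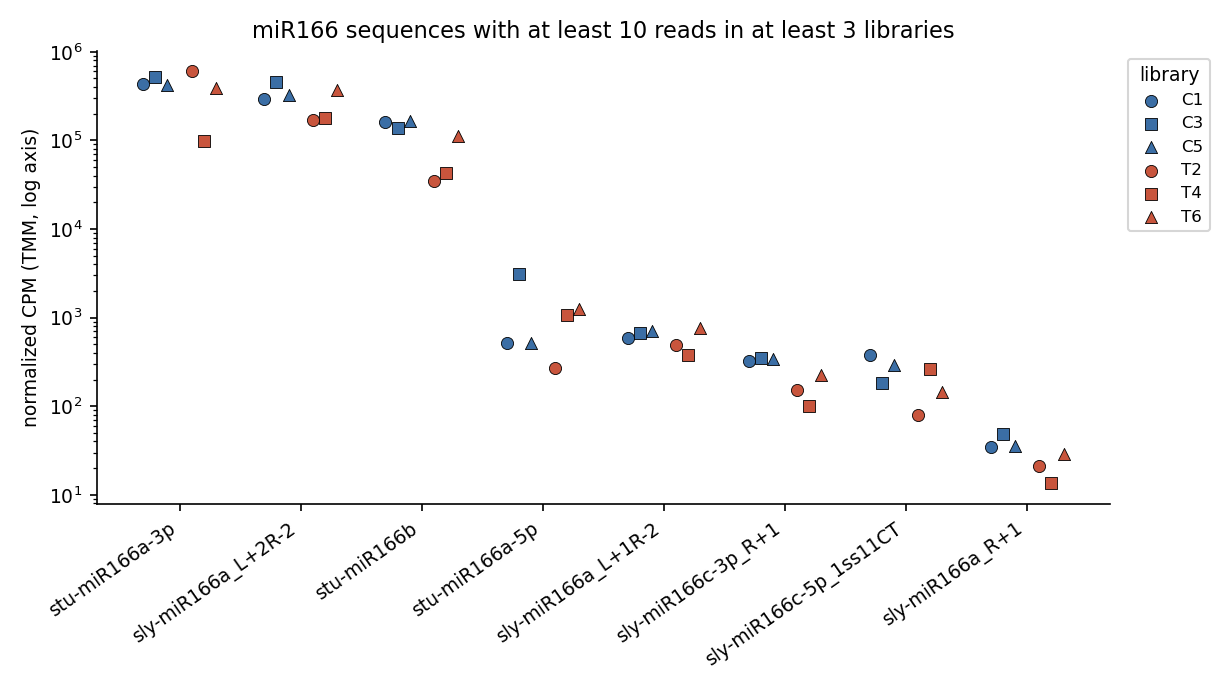
Normalized CPM (vertical, log axis) of the 8 tested miR166 sequences (horizontal), with control libraries in blue and KPhi libraries in red, 1 symbol per library. The 3 abundant sequences lie from 35234 to 601303 and the other 5 from 13.4 to 3066, and T4 is far below the other libraries for stu-miR166a-3p on this scale.

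stu-miR166a-3p had the most reads over all libraries together, 1003241 or 49.5% of the family, and led in each library but T4, where sly-miR166a_L+2R-2 did. Its level was 428913 (C1), 522807 (C3) and 417039 (C5) normalized CPM under control and 601303 (T2), 99073 (T4) and 385393 (T6) under KPhi. T2 was the highest and T4 the lowest of the 6 libraries on this scale. Per mappable reads, the level was 45738 (C1), 38429 (C3) and 34106 (C5) RPM under control and 25119 (T2), 6714 (T4) and 33669 (T6) RPM under KPhi. On that scale every KPhi library lay below every control library, with T6 close to C5, so the place of T2 depended on the scaling. The log2 fold change was -0.33 by TMM (standard error 0.62, adjusted p = 0.821), -0.85 by mappable reads and -0.095 by the table total. By TMM it turned to 0.29 without T4, and it was -0.92 without T2, -0.18 without C1 and -0.018 without C3.

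sly-miR166a_L+2R-2, the form with the shifted 5′ end, had 738332 reads or 36.4% of the family. It was at 289870 (C1), 452836 (C3) and 324759 (C5) normalized CPM under control and 169488 (T2), 180416 (T4) and 369697 (T6) under KPhi. On this scale T2 and T4 lay below the control libraries and T6 among them. By the table total T4 lay above C1, with 53686.5 of 160923 reads against 167982.5 of 612266. The log2 fold change by TMM was -0.57 (standard error 0.50, adjusted p = 0.629). It was -0.16 without C3, -0.36 without T2, -0.32 without T4, -0.96 without T6 and -0.11 by the table total. The 20-base form sly-miR166a_L+1R-2, with 1488 reads, was at 587 (C1), 676 (C3) and 704 (C5) normalized CPM under control and 492 (T2), 380 (T4) and 762 (T6) under KPhi. Its groups overlapped, with T6 the highest library, and its log2 fold change, -0.27 with a standard error of 0.44 (adjusted p = 0.801), turned to 0.047 without T4 and to 0.14 when libraries were scaled by the table total. It was -0.16, -0.046 and -0.079 without C1, C3 or C5, -0.51 without T6 and -0.59 by mappable reads.

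stu-miR166b had 281160 reads or 13.9% of the family. In normalized CPM it was lower in every KPhi library than in every control library, as 9.09% of the 165 sequences tested were. It stood at 161671 (C1), 137805 (C3) and 165592 (C5) normalized CPM under control and 35234 (T2), 43036 (T4) and 113167 (T6) under KPhi. T6 lay nearest to the control libraries, and T2 and T4 were further down. The log2 fold change was -1.28 (standard error 0.54, adjusted p = 0.470), which does not pass the threshold of 0.05. With 1 library left out it ranged from -1.91 without T6 to -0.99 without T2. It was -0.89 by the table total and -1.52 by mappable reads. By the table total T6 lay above C3, with 58784.5 of 555989 reads against 48085.75 of 467996. The separation thus depended on the scaling.

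The 22-base forms with 1 more base at the 3′ end had the same separation in normalized CPM at levels far below. sly-miR166c-3p_R+1, which is stu-miR166b with a further T, was at 326 (C1), 347 (C3) and 337 (C5) normalized CPM under control and 152 (T2), 101 (T4) and 223 (T6) under KPhi. Its log2 fold change was -1.08 (standard error 0.47, adjusted p = 0.470), and -0.70 by the table total. sly-miR166a_R+1, which is stu-miR166a-3p with a further A, was at 34.5 (C1), 48.7 (C3) and 35.5 (C5) normalized CPM under control and 20.9 (T2), 13.4 (T4) and 28.9 (T6) under KPhi. All KPhi libraries lay below the control libraries again, but on 74.2 reads in all and as few as 4 in T4, and the log2 fold change was -0.86 (standard error 0.49, adjusted p = 0.534). It was -0.50 without C3, -0.54 without T4 and -0.50 by the table total. These sequences are among those that the study called differentially expressed from the same libraries, so their separation is no independent evidence. The study also measured stu-miR166b by stem-loop qRT-PCR and reported a pattern similar to its sequencing. It reported the opposite pattern for a target of stu-miR166b annotated as BZIP domain class transcription factor. Transcripts listed with the REV site above include some with that annotation. The study's PCR measurements were not examined here.

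The 5′ arm strands, which are mostly discarded when the 3′ arm strand is loaded, were counted in 117 to 1136 reads per library. stu-miR166a-5p was at 521 (C1), 3066 (C3) and 521 (C5) normalized CPM under control and 268 (T2), 1062 (T4) and 1234 (T6) under KPhi. C3 was the highest library, and T4 and T6 lay above the other control libraries. Its log2 fold change, -0.68 with a standard error of 0.77 (adjusted p = 0.731), turned to 0.89 without C3 and to 0.048 when libraries were scaled by the table total. It was -0.22 without T2 and -1.04 without T6. sly-miR166c-5p_1ss11CT was at 376 (C1), 183 (C3) and 290 (C5) normalized CPM under control and 80.5 (T2), 265 (T4) and 146 (T6) under KPhi, with overlapping groups and a log2 fold change at -0.79 (standard error 0.55, adjusted p = 0.590). It was -0.42 without C1, -0.44 without T2, -1.22 without T4 and -0.13 by the table total. The proportion of the 5′ arm members also differed between control libraries, with 16.7 reads of stu-miR166a-5p per read of sly-miR166c-5p_1ss11CT in C3 against 1.39 in C1 and 1.79 in C5.

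Taking the 8 tested members as a list, 0 passed an adjusted p of 0.05 with edgeR, where 0% of the 165 sequences passed. At an unadjusted p under 0.05 there were 2, both lower, against 4.24% of all sequences that were lower at that level and 9.7% in either direction. DESeq2 and limma-trend also called 0 members after adjustment and 2 before it. Over all 165 sequences, 27 had an unadjusted p under 0.05 with DESeq2 and 9 with limma-trend. In normalized CPM, the KPhi libraries lay below all control libraries for 3 of the 8 members and for 9.09% of the sequences tested. All 8 log2 fold changes were below 0 (56.4% over all sequences), with a median of -0.73 against -0.13. The members overlap in sequence and share their libraries, so they are not independent.

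The scaling moved the family as a whole, since the median of all 165 sequences was -0.13 by TMM, 0.35 by the table total and -0.49 by mappable reads. With the table total, of which miR166 itself is the largest part, 6 of the 8 members stayed below 0 and their median was -0.12. With factors from the other miRNAs alone, all 8 were below 0 and the median was -0.82. Measured from the median of all sequences, the members' median was -0.61 by TMM, -0.47 by the table total, -0.53 by mappable reads and -0.63 with factors from the other miRNAs.

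**Figure D2:**
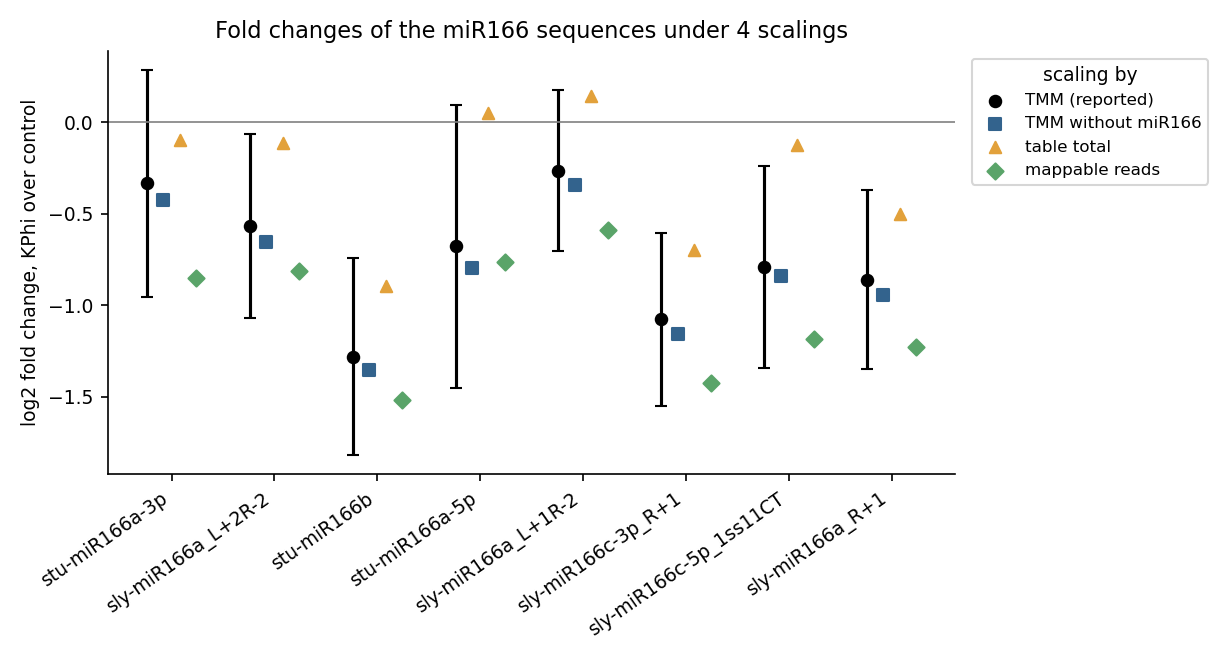
Log2 fold change of KPhi over control (vertical) for the 8 tested miR166 sequences (horizontal) under 4 scalings, with the standard error drawn for the TMM values only. The values by table total lie above the TMM values, up to 0.14 for sly-miR166a_L+1R-2, and those by mappable reads lie below, down to -1.52 for stu-miR166b.

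How the family was made up within a library does not depend on the scaling, so the forms were also compared as shares of the miR166 reads. The control libraries were alike for stu-miR166a-3p, with 48.6% in C1, 46.8% in C3 and 45.9% in C5. The KPhi libraries lay apart from each other, with 74.5% in T2, 30.5% in T4 and 44.3% in T6. The control mean was 47.1% ± 1.40 and the KPhi mean 49.8% ± 22.5 (SD over 3 libraries, exact two-sided permutation test, p = 1.0), and the difference turned from 2.69 to -9.68 percentage points without T2. It was also below 0, at -2.49, when taken as a share of the whole table. sly-miR166a_L+2R-2 mirrored this, with 32.9% (C1), 40.5% (C3) and 35.7% (C5) under control and 21.0% (T2), 55.6% (T4) and 42.5% (T6) under KPhi (exact permutation test, p = 0.7). T2 was thus the lowest and T4 the highest library for the shifted form, and the difference of 3.34 percentage points was -4.63 without T4. As a share of the whole table it was -2.28. stu-miR166b took 18.3% (C1), 12.3% (C3) and 18.2% (C5) under control and 4.37% (T2), 13.3% (T4) and 12.998% (T6) under KPhi, a difference of -6.08 percentage points (exact permutation test, p = 0.3) that was -3.15 without T2. Counting error alone was at most 0.313 percentage points for any of these shares to either side in a 95% Wilson interval, less than the distance of T2 and T4 from the other libraries in the share of stu-miR166a-3p. PCR copies are counted as reads, so that interval covers counting error only.

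**Figure D3:**
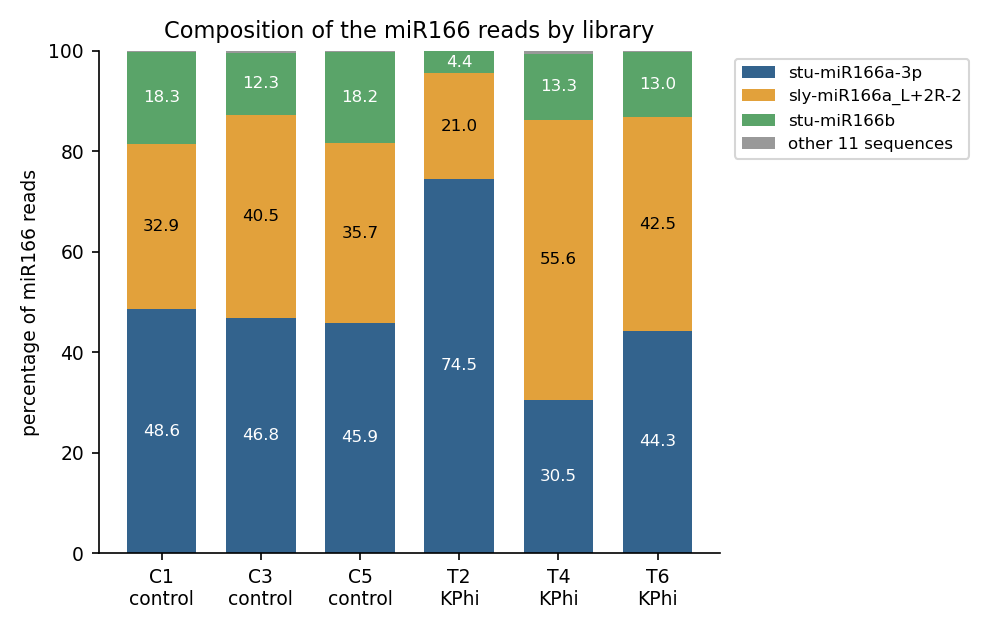
Percentage of the miR166 reads (vertical, from 0) taken by the 3 abundant sequences and by the other 11 together, for each library (horizontal). T2 has the largest part of stu-miR166a-3p (74.5%) and T4 the largest part of sly-miR166a_L+2R-2 (55.6%), while C1, C3, C5 and T6 have 44.3% to 48.6% of the former.

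Ratios between pairs of forms show which of them departed in which library. There were 0.377 (C1), 0.264 (C3) and 0.397 (C5) stu-miR166b reads per stu-miR166a-3p read under control and 0.0586 (T2), 0.434 (T4) and 0.294 (T6) under KPhi. Only T2 lay below the control range among these 6 libraries, and the mean log2 ratio differed by -0.80 (exact two-sided permutation test, p = 0.7) with T2 and by 0.069 without it. For the shifted 5′ end, 32.9% (C1), 40.7% (C3) and 35.8% (C5) of the 3′ arm reads began before the common first base under control and 21.1% (T2), 56.0% (T4) and 42.6% (T6) under KPhi. The difference was 3.40 percentage points (exact permutation test, p = 0.7) and -4.65 without T4. In T4 there were 1.82 reads of sly-miR166a_L+2R-2 per read of stu-miR166a-3p, against 0.282 to 0.959 in the other libraries.

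The 1-base extension followed its parent sequence in most libraries. sly-miR166c-3p_R+1 had 2.02 (C1), 2.52 (C3) and 2.04 (C5) reads per 1000 reads of stu-miR166b under control, and 2.34 in T4 and 1.97 in T6. T2 stood apart with 4.32 per 1000, on 51 reads of the longer form. The mean log2 ratio differed by 0.32 between KPhi and control (exact two-sided permutation test, p = 0.7) and by -0.019 without T2. sly-miR166a_R+1 had 0.0798 (C1), 0.0914 (C3) and 0.0851 (C5) reads per 1000 reads of stu-miR166a-3p under control and 0.0331 (T2), 0.136 (T4) and 0.0749 (T6) under KPhi. Its mean log2 ratio differed by -0.29 (exact permutation test, p = 0.7) and by 0.24 without T2. Per read of its parent, the longer form of stu-miR166b was thus the more frequent of the extensions in every library.

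The arm ratio varied between libraries of both conditions. The 5′ arm had 1.03 (C1), 2.92 (C3) and 0.902 (C5) reads per 1000 reads of the 3′ arm under control and 0.433 (T2), 4.14 (T4) and 1.59 (T6) under KPhi. T2 was the lowest and T4 the highest library, and C3 lay between T6 and T4. The difference of 0.436 reads per 1000 (exact two-sided permutation test, p = 0.7) turned to -0.606 without T4. For stu-miR166a-5p per 1000 reads of stu-miR166a-3p, the range ran from 0.446 in T2 to 10.7 in T4. Together with the shares and ratios above, 9 measures were compared between the conditions, the smallest p was 0.2, and adjusted over the 9 it was 0.787.

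**Figure D4:**
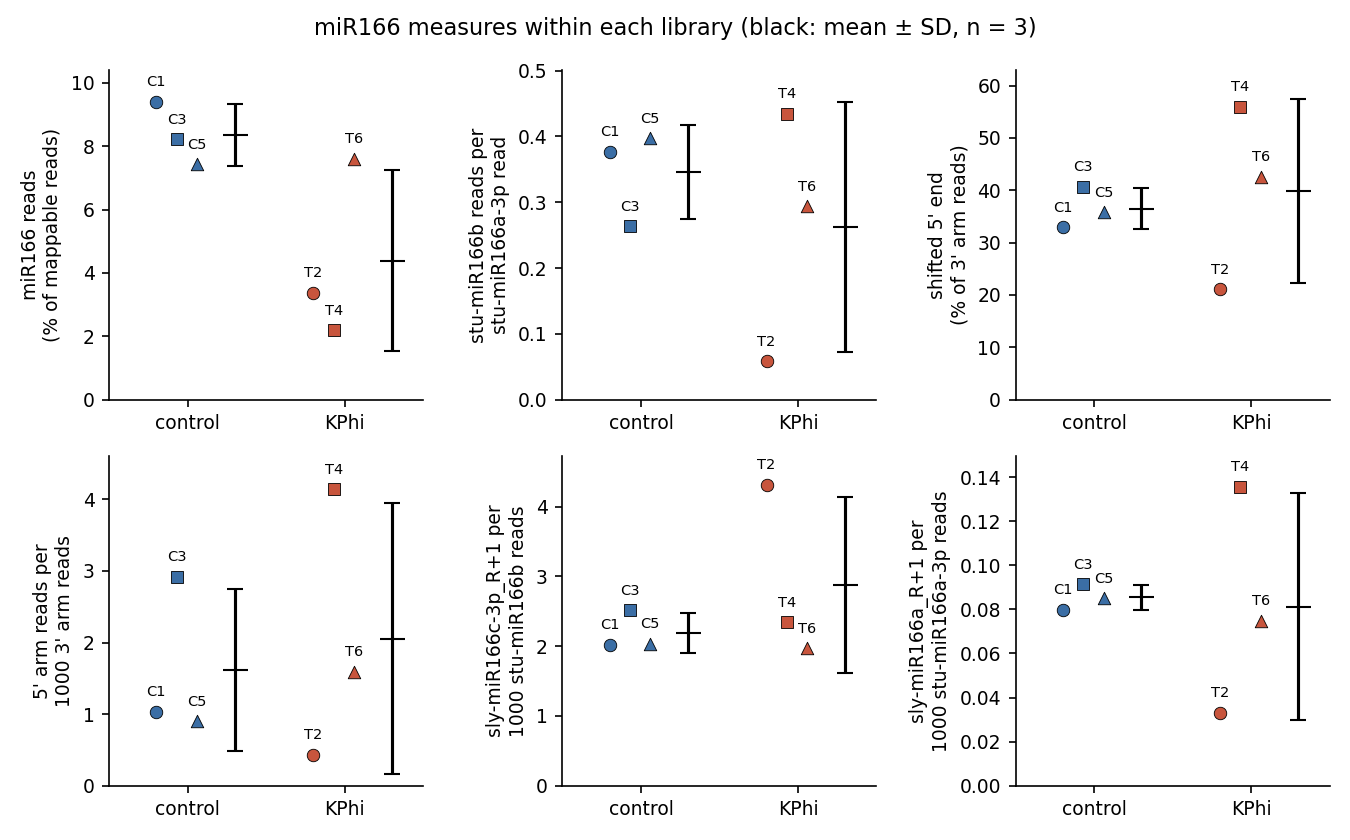
Level, composition and arm measures of miR166 (vertical, units on each axis) in control and KPhi libraries, with 1 point per library and the mean ± SD (n = 3) in black. T2 is lowest in the ratio of stu-miR166b to stu-miR166a-3p (0.0586) and T4 highest in the shifted 5′ end (56.0%) and the 5′ arm (4.14 per 1000), and the 2 lie on opposite sides of the control range for the latter measures.

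The remaining 6 members had 27.0 reads in all, or 0.00133% of the family, and were not tested. stu-miR166d-5p was counted in 5 and 1 reads in C1 and C3 and in 2 reads each in T4 and T6. It had 0 reads in C5 and T2, which allows up to 0.726 and 0.374 RPM of mappable reads there. stu-miR166c-5p_R+1_1ss11TC, which is stu-miR166a-5p with 1 more base, had at most 3.5 reads in any library. The others were sly-miR166a_R+7, nta-miR166a_R+7, nta-miR166a_R+4_1ss13TA and nta-miR166a_L+1R+2_1ss12CT, with 4.79, 1.54, 0.143 and 2 reads. Of the 84 values of the 14 members, 36 were not whole numbers, and the rule by which reads were divided between sequences is not given in the sources used here.

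The sequences most like each of the 3 abundant members were sought among the 156 tested sequences outside the family by the mean absolute difference of centred log2 CPM over the 6 libraries. Nearest to stu-miR166a-3p was PC-5p-835_1857, a predicted sequence, at 0.27 against a median of 0.77 over all 156. Its level was 525 (C1), 992 (C3) and 1109 (C5) normalized CPM under control and 1378 (T2), 175 (T4) and 645 (T6) under KPhi, on this scale highest in T2 and lowest in T4, as for stu-miR166a-3p. PC-3p-58384_28 and PC-3p-681_2215 followed at 0.35 and 0.37. Nearest to sly-miR166a_L+2R-2 were sly-MIR9469-p3_2ss7TC17TC at 0.13, PC-5p-16777_128 and PC-3p-18344_117, both at 0.18. Nearest to stu-miR166b were PC-5p-9496_224 at 0.27, sly-miR319a_L-1R+2 at 0.35 and sly-MIR9469-p3_2ss7TC17TC at 0.36. Several of the sequences named here are rare. In T4, where 13.4 normalized CPM of sly-miR166a_R+1 stood for 4 reads, PC-3p-58384_28 was at 10.1 and sly-MIR9469-p3_2ss7TC17TC at 13.4. sly-miR319a_L-1R+2 was at 2.98 in T2 and 10.1 in T4. Their likeness to the abundant members rests on few reads in those libraries. For comparison, stu-miR166a-3p and stu-miR166b differed by 0.71 and sly-miR166a_L+2R-2 and stu-miR166b by 0.46.

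Other miRNA families that act in leaf polarity and leaf form were counted as a list of miR165, miR390, miR160, miR164, miR319 and miR396. miR165, the close relative of miR166 in Arabidopsis, had 0 rows, and miR390, which starts the trans-acting siRNAs of leaf polarity, had 5 rows of which 0 could be tested. Of the 6 tested sequences of the list, 4 were below 0 and 2 above, where 56.4% of all tested sequences were below 0. With edgeR 0 of the 6 passed an adjusted p of 0.05, and 2 had an unadjusted p under 0.05, against 9.7% of all tested sequences. The auxin response factor regulator stu-miR160a-5p had a log2 fold change at -0.60 (standard error 0.47, adjusted p = 0.610), and sly-miR164a-5p, whose family acts on NAC transcription factors, one of -0.35 (standard error 0.67, adjusted p = 0.821). sly-miR319a_L-1R+2, whose family acts on TCP transcription factors, was at -2.29 (standard error 0.55, adjusted p = 0.278). It is among the 2 sequences of the list at an unadjusted p under 0.05. Its level was 43.1 (C1), 28.7 (C3) and 44.4 (C5) normalized CPM under control and 2.98 (T2), 10.1 (T4) and 9.63 (T6) under KPhi. It reached 10 reads in the control libraries only, so its fold change and p rest on few reads under KPhi. sly-miR396a-5p, whose family acts on growth-regulating factors, was at 2.56 (standard error 0.96, adjusted p = 0.470). It had 15015 normalized CPM in T2 against 559 to 1472 in the other 5 libraries, so T2 stood apart. Of the 3 tested miR396 sequences it was named for its smallest p. The others, stu-miR396-5p and sly-miR396a-3p_1ss10AG, were at 1.07 and -0.35.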

How the data were processed

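Leaf small RNA was sequenced from 3 control and 3 KPhi libraries, grouped by their labels. The authors trimmed the reads, kept those of 15 to 32 nt as mappable and matched sequences to miRBase precursors and the potato genome with ACGT101-miR. Their methods give a narrower length range for that match than the table holds, since members reach 28 nt. In the read summary, the deposited read counts at each step are whole numbers per library. The deposited expected counts per sequence are partly fractional and were rounded for the tests. The deposited normalized signal is the same reads divided by 1 parameter per library, with 0.001 written for 0. The authors' p-values and group means were not used. edgeR 4.0.16 (R 4.3.3) was run with TMM factors, and simulated data were used to test it. Exact permutation tests used scipy 1.17.1, and duplexes used ViennaRNA 2.7.2. DESeq2 1.42.0 and limma 3.58.1 (on log2 of the signal plus 1) were alternatives, beside other scalings, filters and leaving out each library. All members were accounted for, those tested were described singly, and the 3 sequences most like each abundant member and 1 sequence per leaf family were named. Members and lists were chosen with earlier results of these data known.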

Additional observations from a re-analysis of the deposited data

How the results depend on the processing

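No paired analysis was run, because the labels name no pairs and no replicate number occurs in both conditions. Whether libraries of the 2 conditions belong to the same repeat of the experiment is not stated. Of 223 alternative values, 200 kept their direction and their side of any threshold, 14 reversed, and 9 were lower values of a single count, that of members at an unadjusted p under 0.05. The permutation tests give no p below 0.1, so for the 9 measures tested that way only the direction could change. In all, 0 members passed an adjusted p of 0.05 under any alternative run. Over all sequences 0 passed as well, except with no filter, where 4 of 841 did. The count at an unadjusted p under 0.05 was 2 with edgeR, 1 with RLE factors, 1 with no filter, 0 with the table total as scale and 0 with 10 reads in every library. Over all sequences it was 16 of 165 with edgeR, 20 of 165 with RLE factors and 46 of 841 with no filter. With the table total it was 23 of 165, and with 10 reads in every library 11 of 90. For the members it ranged from 0 to 3 with 1 library left out, being 0 without C1, C3, C5, T2 or T4 and 3 without T6. Over all sequences there were 4 of 139 without C1, 13 of 156 without C3 and 13 of 152 without C5. There were 9 of 154 without T2, 18 of 164 without T4 and 21 of 144 without T6. As shares of the whole table, the differences were -2.49 percentage points for stu-miR166a-3p and -2.28 for sly-miR166a_L+2R-2. By table total, the log2 fold change was 0.048 for stu-miR166a-5p and 0.14 for sly-miR166a_L+1R-2.

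With 1 library left out, the differences ranged from -9.68 to 12.3 percentage points for the share of stu-miR166a-3p, from -4.63 to 12.7 for sly-miR166a_L+2R-2, from -4.65 to 12.8 for the shifted 5′ end and from -0.606 to 1.25 per 1000 for the 5′ arm. The log2 ratio ranged from -1.38 to 0.069 for stu-miR166b over stu-miR166a-3p, from -0.019 to 0.55 for sly-miR166c-3p_R+1 over stu-miR166b and from -0.78 to 0.24 for sly-miR166a_R+1 over stu-miR166a-3p. The log2 fold change ranged from -0.92 to 0.29 for stu-miR166a-3p, from -1.04 to 0.89 for stu-miR166a-5p and from -0.51 to 0.047 for sly-miR166a_L+1R-2. The causes were not tested. Few reads limit the rarer members in every library.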
